A study of Mus musculus with 12 samples.

Results

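Some stretches of chromatin in mouse SHH medulloblastoma were listed as open in the tumour bulk and in no library of unsplit SOX2+ cells, yet were listed in the cycling fraction of SOX2+ cells profiled alone. These were 325 of 44242 merged regions (0.735%). They were chosen from the deposited ATAC-seq peak lists as regions with a peak in at least 3 of 4 SOX2- libraries, in 0 of 4 SOX2+ libraries, in at least 1 of 2 SOX2+/MKI67+ libraries and in 0 of 2 SOX2+/MKI67- libraries. Because this choice used presence or absence in all 12 libraries, what follows is a description of the members and their peaks, with no p-value. The word open here means that the authors' peak caller listed a peak, and a region that a list lacks may only just have missed its threshold.

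ATAC-seq marks accessible DNA by the insertion of sequencing adapters with a transposase. All 12 libraries came from tumours of untreated mice of genotype Ptch1+/-, which lack 1 working copy of the receptor that restrains hedgehog signalling, taken at endpoint. The groups were SOX2+/MKI67+ cells (2 libraries), SOX2+/MKI67- cells (2), SOX2+ cells (4) and SOX2- cells (4), sorted by an eGFP signal for SOX2 and, within SOX2+ cells, by an RFP signal for MKI67. The labels give no age, no animal per library and no promoter construct for the reporters, so the spread between libraries may be technical.

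SOX2 is a transcription factor of neural stem cells, and in SHH medulloblastoma SOX2+ cells are a minor, stem-like compartment whose progeny form the bulk. The bulk resembles granule neuron progenitors, the cerebellar cells that divide under sonic hedgehog and then leave the cell cycle to become granule neurons. MKI67 is a nuclear protein present in dividing cells and absent from resting ones. Most regulatory DNA that distinguishes cell types lies away from gene starts, in enhancers, and opens when lineage transcription factors such as basic helix-loop-helix proteins bind it.

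Members that cover the start of a gene allow the DNA itself to be shown. The promoters of Nhlh1 and Kcne1l are given because each lay wholly inside a member and both genes recur in the results. Nhlh1 encodes a basic helix-loop-helix factor of newly born neurons, and Kcne1l (also called Kcne5) encodes a small accessory subunit of potassium channels. Both are the 250 bases before the RefSeq start on the minus strand of GRCm38.p6, read 5′ to 3′ towards the gene. Capitals mark an E-box bound by basic helix-loop-helix factors (CAGATG in Nhlh1, CAGCTG in Kcne1l) and the core of a nuclear factor I (NFI) site, TTGGCA, read here on the other strand as TGCCAA.
Nhlh1 chr1:172057597-172057846: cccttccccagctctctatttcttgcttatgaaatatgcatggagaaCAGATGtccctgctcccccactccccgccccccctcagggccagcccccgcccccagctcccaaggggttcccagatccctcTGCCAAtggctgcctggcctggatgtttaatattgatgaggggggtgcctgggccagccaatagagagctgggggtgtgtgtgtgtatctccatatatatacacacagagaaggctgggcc
Kcne1l chrX:142306199-142306448: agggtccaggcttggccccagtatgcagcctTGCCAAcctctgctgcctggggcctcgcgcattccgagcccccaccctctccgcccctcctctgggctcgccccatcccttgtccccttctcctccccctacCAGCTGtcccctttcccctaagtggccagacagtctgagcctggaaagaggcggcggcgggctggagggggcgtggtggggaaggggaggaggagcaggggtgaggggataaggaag

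The depth of peak calling differed strongly between libraries. Lists held 18738 and 24694 peaks in SOX2+/MKI67+ replicates 1 and 2, 19229 and 17615 in SOX2+/MKI67-, between 9377 and 25272 in SOX2+, and between 7009 and 26206 in SOX2-. Read depth is unknown. Loci of the sort markers followed the labels in part. Sox2 carried 3 to 5 peaks in SOX2+/MKI67+ libraries, 3 to 6 in SOX2+/MKI67-, 2 to 6 in SOX2+ and 0 to 1 in SOX2-. Mki67 carried 2 to 5 peaks in SOX2+/MKI67+ libraries and 1 to 2 in SOX2+/MKI67-, so the ranges touch. Atoh1, the determinant of the granule lineage, carried 2 to 4 peaks in SOX2+/MKI67+ libraries, 0 to 1 in SOX2+/MKI67-, 0 to 4 in SOX2+ and 2 to 4 in SOX2-. Barhl1, another granule lineage factor, carried 0 peaks in every SOX2+ library of either sort and 0 to 3 in SOX2-. Olig2, a factor of the oligodendrocyte lineage, carried 3 to 4 peaks in SOX2+/MKI67+ libraries, 4 to 5 in SOX2+/MKI67-, 3 to 4 in SOX2+ and 0 to 2 in SOX2-.

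The first question was how bulk-only regions divide within the SOX2+ compartment once it is split by MKI67. Bulk-only regions, those in 0 of 4 SOX2+ lists and 3 or 4 of the SOX2- lists, numbered 680 (1.54% of all regions). Of these, 325 (47.8%, exact binomial 95% interval 44.0 to 51.6%) were listed in SOX2+/MKI67+ and not in SOX2+/MKI67-, against 17.5% of all regions. This share was 30.6% with equal lengths of the 4 MKI67 lists and 28.7% without SOX2+/MKI67+ replicate 2. Where a SOX2- library was left out, the rule was also loosened to 2 of the other 3 SOX2- lists. Under that looser rule the share was 27.4% without SOX2- replicate 1, with 1019 members, and 28.0% without SOX2- replicate 3. Of the 325 members, 304 were in all of SOX2- replicates 2 to 4, so the rise to 1019 belongs to the looser requirement. None of the bulk-only regions was listed in SOX2+/MKI67- alone (0 of 680, which allows a share of up to 0.441%), against 6.95% of all regions. A further 13 (1.91%) were in lists of both fractions and 342 (50.3%) were in neither. Every bulk-only region that was found in a SOX2+/MKI67- list was therefore also in a SOX2+/MKI67+ list. This did not hold in every setting. Regions in SOX2+/MKI67- alone were 8 of 683 without SOX2+/MKI67+ replicate 2 and 3 of 683 with equal MKI67 lists. Under the looser rule they were 28 of 3720 without SOX2- replicate 1 and 23 of 3456 without SOX2- replicate 3. These intervals and limits cover counting error only, and neighbouring regions are not independent. The peak number at Atoh1 moved in the same direction (2 to 4 in SOX2+/MKI67+ and 0 to 1 in SOX2+/MKI67- libraries), whereas Barhl1 had 0 peaks in all 4, and the part of granule lineage cells in the split was not tested.

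The split was seen in each library. SOX2+/MKI67+ replicates 1 and 2 listed 202 (29.7%) and 246 (36.2%) of the 680 bulk-only regions. SOX2+/MKI67- replicates 1 and 2 listed 11 (1.62%) and 3 (0.441%). The lowest SOX2+/MKI67+ library thus listed more of them than the highest SOX2+/MKI67- library, and with 2 libraries a side an exact permutation test cannot give a p below 0.33. Over all regions the shares were 41.4% and 54.8% in the SOX2+/MKI67+ lists and 42.5% and 39.1% in the SOX2+/MKI67- lists. For the opposite class, the 1814 SOX2+-only regions (4.1% of all regions, in 3 or 4 of the SOX2+ lists and 0 of 4 SOX2- lists), 66 were in SOX2+/MKI67+ alone, 68 in SOX2+/MKI67- alone and 1652 in lists of both.

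**Figure D1:**
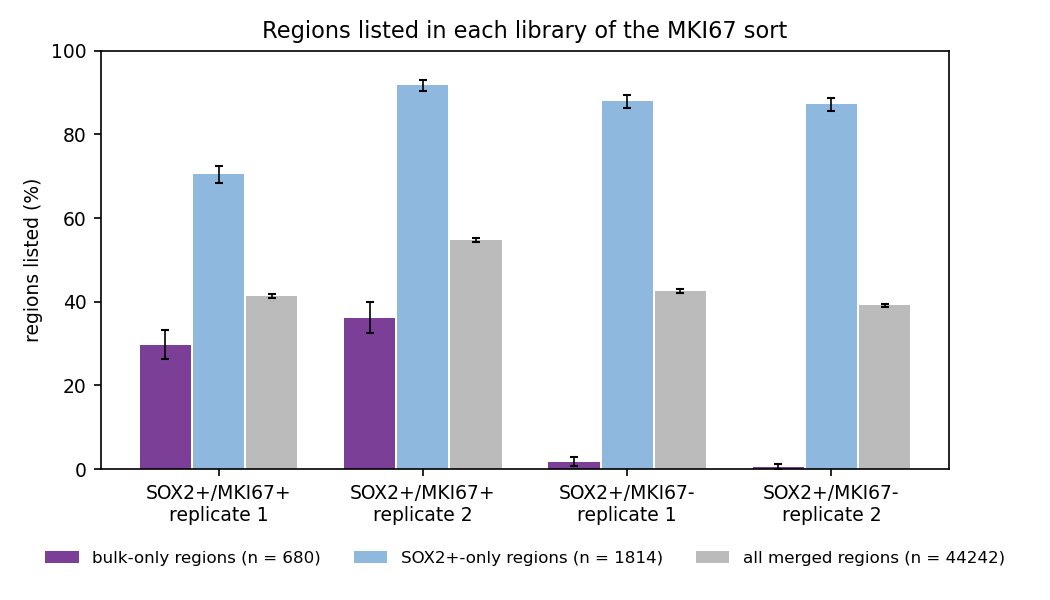
Percentage of bulk-only, SOX2+-only and all merged regions that each of the 4 libraries of the MKI67 sort listed, with exact binomial 95% intervals as error bars. Bulk-only regions reach 29.7% and 36.2% in the SOX2+/MKI67+ libraries and stay at 1.62% and 0.441% in the SOX2+/MKI67- libraries.

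A library of the MKI67 sort left out of the choice gives a measure that the choice among bulk-only regions did not use. When bulk-only regions were chosen with the first MKI67 replicates only (in SOX2+/MKI67+ replicate 1, not in SOX2+/MKI67- replicate 1), 197 regions resulted. SOX2+/MKI67+ replicate 2 then listed 105 of them (53.3%, 95% interval 46.1 to 60.4%) and SOX2+/MKI67- replicate 2 listed 1 (0.508%, 0.0129 to 2.80%). With the second replicates used for the choice, 244 regions resulted, of which SOX2+/MKI67+ replicate 1 listed 110 (45.1%) and SOX2+/MKI67- replicate 1 listed 10 (4.10%). The shares in the SOX2+/MKI67+ libraries left out were close to those over all regions (54.8% and 41.4%). Those in the SOX2+/MKI67- libraries left out lay far below the shares over all regions (39.1% and 42.5%). Over all 680 bulk-only regions, however, SOX2+/MKI67- replicates 2 and 1 listed 0.441% and 1.62%. The low shares were thus a trait of bulk-only regions, and the choice by MKI67 lists did not lower them. Bulk-only regions were themselves chosen for absence from all SOX2+ lists, and both MKI67 fractions are parts of SOX2+ cells. Low listing in a library left out can thus be set in part by that choice, and all regions are no matched background. Over all 680, SOX2+/MKI67+ replicates 2 and 1 listed 36.2% and 29.7%.

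The absence from unsplit SOX2+ cells was less even. Leaving a SOX2+ library out of the rule and then asking how many of the chosen regions it listed gave 16 of 341 (4.69%) for replicate 1, 0 of 325 (which allows up to 0.923%) for replicate 2, 331 of 656 (50.5%) for replicate 3 and 99 of 424 (23.3%) for replicate 4. Over all regions these libraries listed 37.0%, 20.9%, 43.5% and 56.1%. The 4 libraries thus ranged widely, and in replicate 3 regions absent from the other 3 SOX2+ lists were found about as often as any region. Without replicate 3 the rule gave 656 regions in place of 325. Altogether 446 regions missed the rule by a single SOX2+ list, 697 by having exactly 2 SOX2- lists and 12 by a single SOX2+/MKI67- list.

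**Figure D2:**
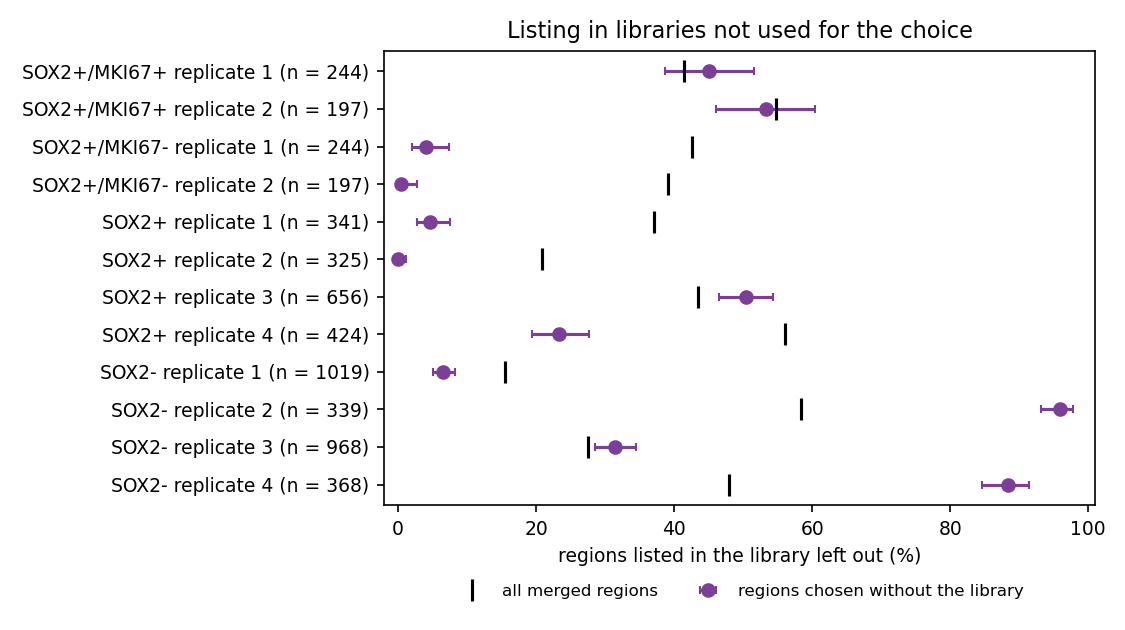
Percentage of regions listed in a library that was left out of the choice (points, exact binomial 95% intervals, n regions chosen without it) beside the percentage of all regions that the library listed (bars). Where a SOX2- library was left out, the required number of SOX2- lists was lowered. Both SOX2+/MKI67- libraries lie at 4.10% or less (0.441% and 1.62% over all bulk-only regions), and the SOX2+ libraries range from 0 to 50.5%.

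Most members rested on 3 SOX2- libraries rather than 4. Of the 325, 46 were in all 4 SOX2- lists and 279 in 3, with 258 missing from replicate 1 (the shortest list), 21 missing from replicate 3 and 0 missing from replicates 2 or 4. In SOX2+/MKI67+, 105 were in both lists, 91 in replicate 1 alone and 129 in replicate 2 alone. Among bulk-only regions in all 4 SOX2- lists, 46 of 70 (65.7%) were members, and among those in 3 lists, 279 of 610 (45.7%). Only 22 members were in all 6 lists.

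Member peaks mostly ranked low within the lists of cycling SOX2+ cells and at varied places within those of the bulk. In sorted pools, a region open in few cells and one slightly open in many cannot be told apart. Strength was read as a percentile by score within a list, where 0 is the weakest peak of that list and the score is the authors' whole-number form of the -log10 q-value. The median member peak stood at the 22.3 and 20.5 percentile in SOX2+/MKI67+ replicates 1 and 2. In SOX2- replicates 1 to 4 it stood at the 20.6, 67.9, 29.8 and 54.3 percentile. Over libraries this was 21.4 ± 1.29 in SOX2+/MKI67+ (SD, n = 2) and 43.1 ± 21.8 in SOX2- (n = 4). Ranks and folds belong to lists of different length and unknown depth, so values are given side by side and are not levels that can be compared between libraries. The authors' fold over local background had a median of 3.90 and 3.74 for member peaks in SOX2+/MKI67+, and of 3.68, 4.98, 3.76 and 4.46 in SOX2- replicates 1 to 4. The other 355 bulk-only regions ranked lower than the members in every SOX2- list, with medians at the 10.7, 55.5, 23.8 and 36.5 percentile. Whether members differ from them by more than strength in the bulk was not tested.

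**Figure D3:**
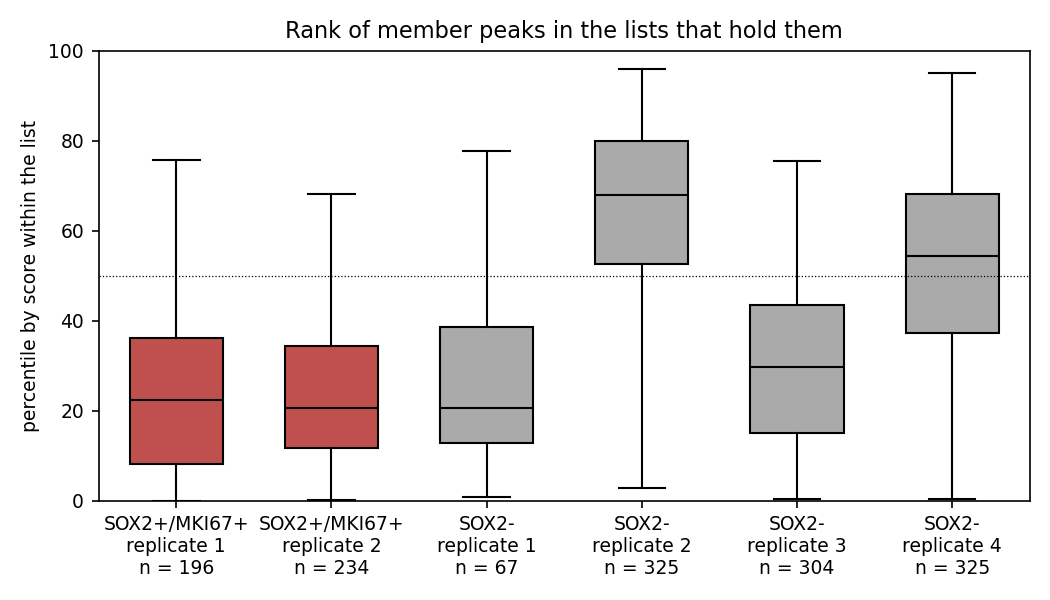
Percentile by score of member peaks in each list that holds them (box, quartiles; line, median; whiskers, lowest and highest), with the number of members listed. The dotted line marks the middle of each list. Medians are 22.3 and 20.5 in the 2 SOX2+/MKI67+ libraries and between 20.6 and 67.9 in the 4 SOX2- libraries.

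The set of members depended on how lists were trimmed. With the strongest 17615 peaks taken from each of the 4 MKI67 lists, 209 regions met the rule, 207 of them among the 325, and 3 bulk-only regions were in SOX2+/MKI67- alone. With the strongest 7009 peaks from all 12 lists, 88 regions met it, only 2 of which were among the 325, and 9 bulk-only regions were in SOX2+/MKI67- alone. In both settings more bulk-only regions were in SOX2+/MKI67+ alone than in SOX2+/MKI67- alone, but with 7009 peaks these were almost all other regions. The identity of the members was thus not kept at the length of the shortest list. Equal list length does not make read depth equal, and the part of depth was not tested.

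Members as listed lay mostly away from gene ends. By their midpoints, 26 of 325 (8.0%) were within 1 kb of either end of a protein-coding gene, 149 (45.8%) elsewhere inside a gene and 150 (46.2%) between genes. Among the other bulk-only regions these shares were 5.92%, 42.3% and 51.8%, among SOX2+-only regions 10.7%, 52.0% and 37.3%, and over all regions 27.3%, 38.5% and 34.2%. This depended on list length, since with the strongest 7009 peaks of every list 35.2% of the 88 regions that met the rule were at gene ends. The median distance to the nearest gene start in the RefSeq promoter table (chromosome 18 left out) was 31.0 kb for members and 14.3 kb over all regions. It was 30.9 kb for the other bulk-only regions and 22.0 kb for SOX2+-only regions, so this distance was not particular to the members. More than 500 kb from the nearest protein-coding gene lay 12 of the 325 members. The same held for 4 of 355 other bulk-only, 17 of 1814 SOX2+-only and 587 of all 44242 regions. Members were 299 to 1104 bp wide (median 521 bp), against a median of 411 bp over all regions. The median was 479 bp for the other bulk-only regions and 521.5 bp for SOX2+-only regions. They were found on all 20 chromosomes studied, at 12.1 per 1000 regions on chromosome 16 and 3.29 on chromosome X, the highest and the lowest, against 7.35 overall.

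Peaks of the cells in which members were not listed were mostly kilobases away, as they were for the other bulk-only regions. A peak of any SOX2+ library lay within 1 kb of 12 members (3.69%), and one of any SOX2+/MKI67- library within 1 kb of 10 (3.08%). The median distances were 19.4 kb and 30.7 kb. For the other 355 bulk-only regions the counts were 11 (3.10%) and 15 (4.23%), with median distances of 23.4 kb and 35.6 kb. Members were also scattered with respect to each other, since only 15 had another member within 100 kb.

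Protein-coding genes that were nearest to several members numbered 17, with 37 members among them. Arid1b, Atp2b1 and Lhx1 had 3 each. Ccdc167, Kcnd3, Kcne1l, Kcnj6, Klhl29, Lnpk, Nfia, Nxph1, Plcb1, Rbfox1, Rnf144a, Slc4a3, Stxbp6 and Tmpo had 2 each. The set includes chromatin regulation (Arid1b, a subunit of the SWI/SNF remodelling complex), calcium export (Atp2b1, a plasma membrane calcium pump), potassium channels (Kcnd3, Kcnj6 and the accessory subunit Kcne1l), neuronal splicing (Rbfox1) and the secreted neuropeptide-like protein gene Nxph1. It further includes Plcb1 (a phospholipase C), Slc4a3 (an anion exchanger), Rnf144a (a ubiquitin ligase), Stxbp6 (a SNARE-binding protein) and Tmpo (a protein of the nuclear lamina). These are nearest genes at any distance, and a gene with many regions has more chances to hold members. Nfia had 40 regions, Rbfox1 28, Arid1b 27 and Klhl29 26, while Kcne1l had 2, and 0.735% of all regions were members. Of the 17 genes, 9 had no SOX2+-only region, whereas Rnf144a had 4 and Nxph1 had 3. Whether any function is over-represented was not tested. All members of Ccdc167, Kcne1l, Lnpk, Nfia, Nxph1, Plcb1 and Stxbp6 lay within 100 kb. Both members of Klhl29 and of Tmpo lay more than 500 kb away, as did a member of Atp2b1 and a member of Slc4a3. The farther Tmpo member covers the start of another gene, Gm31592. Whether members act on the genes named was not tested.

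Lhx1, a LIM homeodomain factor of Purkinje and other neurons, had 3 of its 9 regions among the members, all upstream of the gene in the intergenic stretch before its start. The first, chr11:84562832-84563188, lay 37.5 kb upstream, with a fold of 3.31 in SOX2+/MKI67+ replicate 2 and of 3.27, 2.87 and 3.39 in SOX2- replicates 2 to 4. The second, chr11:84570348-84571110, lay 45.2 kb upstream and was in all 6 lists, with folds of 3.88 and 2.96 in SOX2+/MKI67+ replicates 1 and 2 and of 3.55, 4.68, 3.11 and 3.84 in SOX2- replicates 1 to 4. The third, chr11:84627258-84628361, lay 102 kb upstream, with a fold of 3.68 in SOX2+/MKI67+ replicate 2 and of 5.0, 3.76 and 4.30 in SOX2- replicates 2 to 4. The second was thus the only Lhx1 member seen in SOX2+/MKI67+ replicate 1. The region at the start of Lhx1, chr11:84525173-84526023, was in 3 SOX2- lists and 1 SOX2+ list and in no list of the MKI67 sort. The 3 upstream members were in a SOX2+/MKI67+ list because the rule required it, so their contrast with the start is a description. Other upstream regions, 28.7, 60.3, 72.7 and 88.0 kb before the start, were also in no list of the MKI67 sort. A further region, 117 kb upstream, was in lists of both fractions.

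Reln codes for reelin, a protein secreted by granule cells that guides the migration of Purkinje neurons. One of its 10 regions was a member, chr5:21949032-21949694 inside the gene, 395 kb past its start. Its folds were 3.41 and 3.10 in SOX2+/MKI67+ replicates 1 and 2 and 3.23, 4.23, 5.11 and 4.28 in SOX2- replicates 1 to 4. It ranked low in cycling cells, at the 10.4 and 2.57 percentile. The bulk-only regions chr5:22093134-22093743 (4 SOX2- lists) and chr5:22280577-22280946 (3 lists) in the same gene were in no list of the MKI67 sort. Bulk-only regions of 1 gene were thus split between members and regions not listed in either MKI67 fraction.

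**Figure D4:**
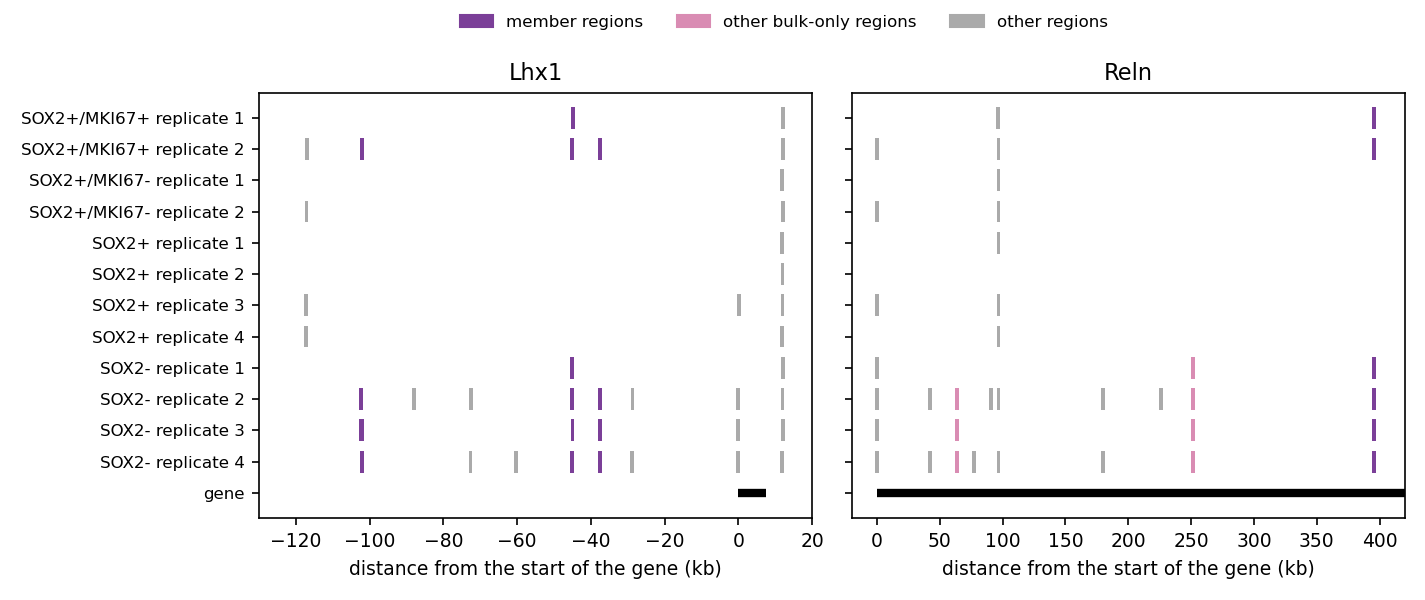
Peaks of the 12 libraries at Lhx1 and Reln by distance from the start of the gene in kb, positive into the gene, with members, other bulk-only regions and all other regions in separate colours (narrow peaks are drawn at a minimum width). The 3 Lhx1 members lie 37.5, 45.2 and 102 kb upstream, and the Reln member 395 kb inside, with none in a SOX2+ or SOX2+/MKI67- row.

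Nhlh1 had its promoter among the members, chr1:172057454-172058024, which spans the sequence printed above. Its fold was 2.83 in SOX2+/MKI67+ replicate 2 (5.29 percentile) and 3.52, 3.33 and 3.86 in SOX2- replicates 1, 2 and 4. It was not listed in SOX2+/MKI67+ replicate 1 or in SOX2- replicate 3. A neighbouring bulk-only region, chr1:172060739-172061183, was in no list of the MKI67 sort. At Kcne1l both of its regions were members, chrX:142306000-142306556 over the printed promoter and chrX:142305015-142305720 just inside the gene. The promoter region had a fold of 3.14 in SOX2+/MKI67+ replicate 1 and of 3.64, 2.81 and 3.69 in SOX2- replicates 2 to 4. The second had folds of 3.54 and 3.47 in SOX2+/MKI67+ and of 3.17, 2.73 and 3.22 in SOX2- replicates 2 to 4, so that it was in both cycling libraries while the promoter region was in 1.

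Neurod4, a proneural basic helix-loop-helix gene, had the strongest of the members near genes of the chosen lists by mean percentile (74.0). This member, chr10:130263127-130263687, lies 4.74 kb beyond the far end of the gene. Its folds were 5.12 and 5.85 in SOX2+/MKI67+ replicates 1 and 2 and 7.59, 5.91 and 7.96 in SOX2- replicates 2 to 4. It stood at the 50.7 and 60.3 percentile in cycling cells, in the middle of those lists rather than near their threshold. It was not in SOX2- replicate 1.

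The nuclear factor I genes, which control the maturation of granule neurons, contributed 3 members. Nfia had 2 of its 40 regions, chr4:97564614-97565091 before the gene and chr4:98047077-98047752 inside it. Their folds were 4.58 and 3.73 for the outer site and 4.95 and 3.66 for the inner site in SOX2+/MKI67+ replicates 1 and 2. In SOX2- the outer site had 4.13, 6.49 and 5.12 in replicates 1, 2 and 4, and the inner site 3.75, 3.51 and 4.48 in replicates 2 to 4. Nfib had 1 member, chr4:82643080-82643983, 137 kb from the gene and in all 6 lists, with folds of 3.35 and 3.82 in SOX2+/MKI67+ and of 3.39, 4.62, 3.03 and 3.74 in SOX2- replicates 1 to 4.

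Lists of genes were read by how many of their genes had a member as nearest gene within 100 kb. Over all 21627 protein-coding genes this was 251 (1.16%), and over the 14712 genes with any region 1.71%. The 5 lists of granule neuron progenitor and neuronal genes together had 19 of 159 genes (11.9%), and 3 lists of stem cells and glia had 0 of 54. The other bulk-only regions had 16 of 159 and 3 of 54, close to the members at the neuronal lists. Counted by regions rather than genes, 21 of 1144 regions at the neuronal lists were members (1.84%), 0 of 221 at the stem and glial lists (which allows up to 1.36%) and 260 of 39883 overall (0.652%). The other bulk-only regions numbered 19, 3 and 296 among the same regions, so the place at neuronal genes was not particular to the members. For SOX2+-only regions the corresponding shares were 3.23%, 15.4% and 4.06%. The limit that the count of 0 allows is above the overall share of members, so the stem and glial lists are not shown to hold fewer. The neuronal lists were chosen with earlier results of the same libraries known.

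By list, granule neuron progenitor genes had 3 of 22 with a member within 100 kb, neuronal transcription factors 6 of 39, neuronal differentiation and cytoskeleton 3 of 24, channels and synapse 4 of 33, and axon guidance and adhesion 3 of 41. The Notch list had 1 of 20 (Lfng, a glycosyltransferase that modifies Notch receptors) and the Wnt list 1 of 25 (Wnt7b, a ligand). The hedgehog list had 0 of 17, the cell cycle list 0 of 42, cell cycle inhibitors 0 of 18 and the BMP and TGF-beta list 0 of 23. Among markers of other cells that a sort could carry over, 1 of 54 genes had a member (Tbx18, of mural and meningeal cells), and the endothelial, microglial, lymphocyte and ependymal lists had 0. Only 34 of these 54 genes had any region, and 1.71% of all protein-coding genes with any region had a member. These counts therefore cannot show whether such cells were absent. The housekeeping list had 1 of 12 (Ywhaz, an adaptor protein). No member, at any distance, had a gene of the cell cycle list such as Mki67, Ccnd2 or Mcm2 as its nearest gene. Over all protein-coding genes 1.16% had a member within 100 kb, so a count of 0 in lists this short does not show a lack.

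**Figure D5:**
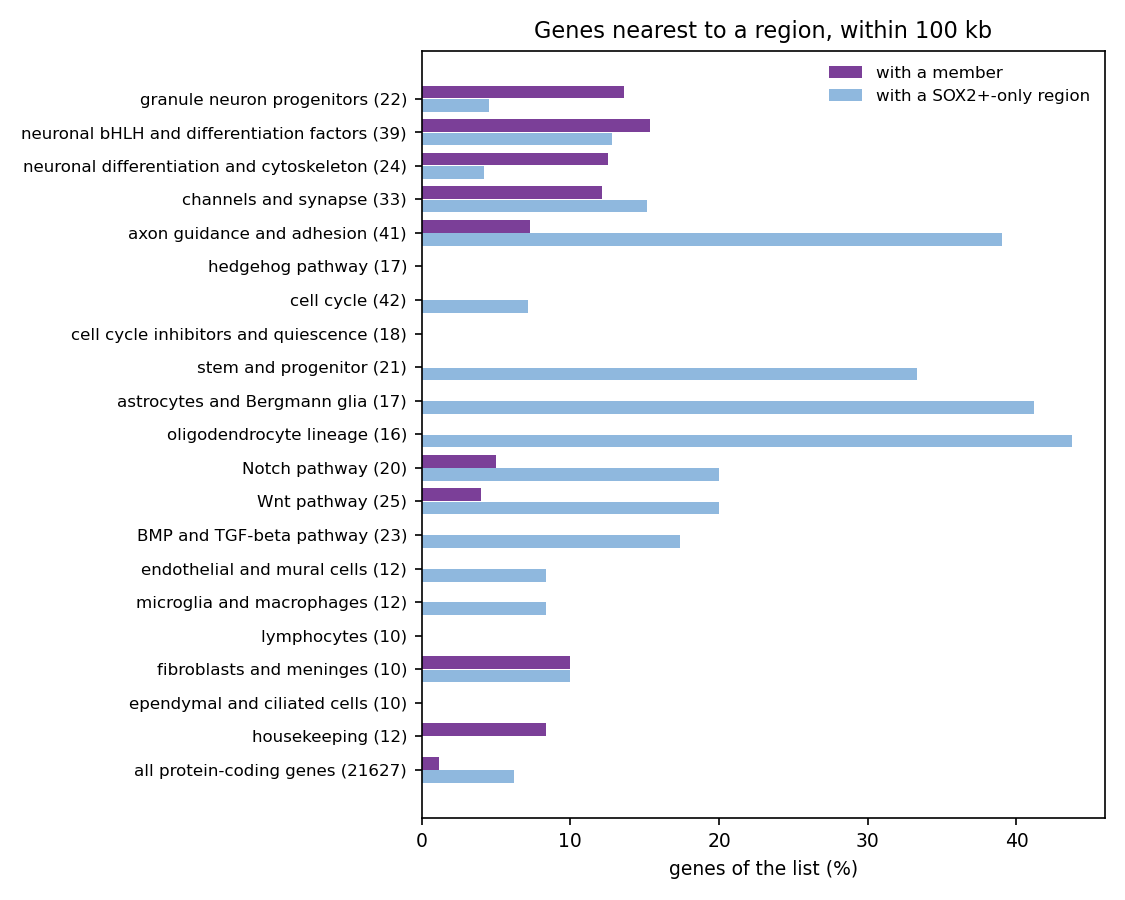
Percentage of genes of each list that were the nearest gene, within 100 kb, of a member (upper bar) or of a SOX2+-only region (lower bar), with the number of genes in parentheses. Members reach 7.32 to 15.4% in the 5 neuronal and granule lists and 0 in the 3 stem and glial lists, against 1.16% of all protein-coding genes.

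At any distance, 36 members had 1 of 32 list genes as their nearest gene. In the granule progenitor list these were Nhlh1, Sfrp1 (a secreted Wnt antagonist), Pde1c (a cyclic nucleotide phosphodiesterase), Mycn (the oncogenic transcription factor induced by hedgehog signalling) and Meis1 (a homeodomain factor). The Mycn member, chr12:12676677-12677351, lay 259 kb from the gene and had a fold of 4.53 in SOX2+/MKI67+ replicate 1 and of 4.51, 4.13, 3.8 and 3.85 in SOX2- replicates 1 to 4. The Sfrp1 member, chr8:23477430-23478182, was in all 6 lists with folds of 3.09 and 3.29 in SOX2+/MKI67+ and of 3.47, 4.76, 3.44 and 4.73 in SOX2- replicates 1 to 4. The Mycn member was thus in 1 cycling and all 4 bulk libraries, and the Sfrp1 member in every library of both groups.

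Among neuronal factors, members also lay near En2, Lmx1a and Tbr1. En2 is a homeobox gene of the midbrain and cerebellum, and its member at chr5:28174810-28175328 had folds of 3.54 and 4.21 in SOX2+/MKI67+ against 3.58, 3.10 and 3.56 in SOX2- replicates 2 to 4. The En2 member covers the start of another gene, Gm52808. Lmx1a, a LIM homeodomain factor of the rhombic lip, held its member inside the gene at chr1:167736758-167737264, with 4.83 in SOX2+/MKI67+ replicate 2 against 7.48, 3.90 and 4.77 in SOX2- replicates 2 to 4. Tbr1, a T-box factor of cerebellar nuclear and cortical neurons, held its member at chr2:61807070-61807497, with 3.72 in SOX2+/MKI67+ replicate 2 against 4.55, 3.10 and 3.02 in SOX2- replicates 2 to 4. All 3 were in 3 SOX2- lists, and only the En2 member was in both SOX2+/MKI67+ lists. For neuronal maturation the genes were Reln, Rbfox1 and Elavl2 (an RNA-binding protein of neurons), among others.

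The channel and synapse genes with a member included several glutamate receptor genes, in a list that also holds GABA receptors and voltage-gated channels. They were Grin2b (an NMDA receptor subunit), Grik2 (a kainate receptor subunit) and Grm4 (a metabotropic receptor of granule neurons), with the member within 100 kb, and Gria2 (an AMPA receptor subunit), with it at 313 kb. Each of these 4 members was in 3 SOX2- lists. The Gria2 member was in both SOX2+/MKI67+ lists and the other 3 were in 1. For axon guidance and adhesion the genes were Epha7 (an ephrin receptor), Unc5b (a netrin receptor) and Astn2 (a protein of glia-guided migration) within 100 kb, and Efna5 and Plxna2 farther away. Of the remaining genes, Lef1 (a Wnt effector), Tgfb2 (a growth factor) and Klf4 (a zinc finger factor) had their member more than 100 kb away.

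The members in all 6 lists were ranked by mean percentile, and the 20 highest are named by their nearest gene. In order these were 2810006K23Rik, Trmt44, Cdk15, Eps8l3, Tmtc1, Kcnj6, Map3k1, Trhde, Aldoart1, Cemip2, Tyro3, Mkln1, Sfrp1, Lhx1, Frmd4a, Reln, 4931429L15Rik, Nfib, Malt1 and Prok2. Signalling genes among them are Map3k1 (a kinase of the MAP kinase cascade), Tyro3 (a receptor tyrosine kinase) and Prok2 (a secreted peptide). The 22 members in all 6 lists spanned mean percentiles of 32.6 to 59.1, within the range of all members (6.52 to 74.7). The first, chr5:124334294-124334811 inside 2810006K23Rik, had folds of 4.25 and 4.22 in SOX2+/MKI67+ and of 4.14, 6.14, 3.46 and 5.38 in SOX2- replicates 1 to 4. The Trmt44 member, chr5:35552171-35552879, had 5.39 and 4.12 in SOX2+/MKI67+ and 3.24, 5.94, 4.29 and 5.39 in SOX2-. Trmt44 encodes a tRNA methyltransferase. The Cdk15 member, chr1:59376185-59376998, had 3.95 and 4.18 in SOX2+/MKI67+ and 4.01, 5.58, 4.61 and 5.75 in SOX2-. Cdk15 encodes a kinase related to the cyclin-dependent kinases. The Kcnj6 member, chr16:95119220-95119739, had 3.83 and 3.88 in SOX2+/MKI67+ and 5.29, 7.62, 3.94 and 5.05 in SOX2-. Kcnj6 encodes a G protein-gated inward rectifier potassium channel.

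Just inside the rule, the 5 members with the lowest mean percentile were nearest to Tbx18 (6.52), Atp2b1 (7.66), Arid1b (14.6), Lgals1 (16.0) and Ccdc167 (16.3), each in 1 SOX2+/MKI67+ and 3 SOX2- lists. Just outside, 12 bulk-only regions in SOX2+/MKI67+ were left out by a peak in a single SOX2+/MKI67- list. The 5 where that peak ranked lowest were nearest to Phlpp1 (0.720 percentile in that list), Gm815 (1.67), C87436 (5.48), Syf2 (7.55) and Dnaic2 (16.3), and in the other 7 it stood at the 21.8 to 49.3 percentile. At Atp2b1 the 3 members differed widely, since the one 581 kb before the gene, chr10:98333576-98334092, had folds of 4.99 and 4.29 in SOX2+/MKI67+ and of 7.03, 4.22 and 6.45 in SOX2- replicates 2 to 4, while the weakest had 3.38 in SOX2+/MKI67+ replicate 2 and 3.35, 3.36 and 3.09 in SOX2- replicates 2 to 4.

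Only the members at gene starts could be read for sequence. Of the 315 members outside chromosome 18, 22 (6.98%) overlapped a RefSeq promoter window of 300 bp (250 bases before to 50 after a start), against 24.1% of all regions, and they touched 26 windows of 24 genes. Of these windows 11 lay wholly inside a member and the smallest overlap was 28 bp, so the counts below include DNA outside the members. Median GC content was 56.5% in these windows and 53.0% in all 32619 windows. In all, 16 motifs were searched on both strands. The E-box CAGATG was in 8 of 26 windows (30.8%, against 17.1% of all windows) and the palindromic E-box CAGCTG in 5 (19.2%, against 16.4%). The NFI core TTGGCA was in 9 (34.6%, against 14.1%) and the MEIS core TGACAG in 10 (38.5%, against 18.9%). The ZIC core CAGCAGG was in 6 (23.1%, against 10.6%) and the RFX core GTTGCC in 7 (26.9%, against 12.3%). In the windows of D830013O20Rik and Gm26782 and in both overlapping windows of Tcp11, an NFI and an RFX core shared bases. The NFI and RFX counts are therefore not separate results. The SOX cores ACAATG and ACAAAG were in 1 (3.85%, against 12.2%) and 3 (11.5%, against 18.7%), and the LIM homeobox core TAATTA was in 1 (3.85%, against 5.25%). The AP-1 site TGANTCA, the GLI site GACCACCC, the octamer ATGCAAAT, the E2F site TTTCCCGC, the CTCF core CCACCAGGG, the NRF1 core and the full NFI site were in 0 of 26, which allows up to 11.5%. These are counts of letters in few windows, some of which overlap, so a difference of this size is a description and no evidence of binding. The members away from gene starts were not read for sequence here.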

How the data were processed

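Open chromatin was profiled by ATAC-seq in 12 libraries of sorted tumour cells, from 35000 to 50000 cells each and with single-end reads of 50 bp, per the labels' protocols. Bowtie2, MACS2 and the build mm10 are named in the submitters' processing notes. Their versions and settings, the treatment of duplicate reads and any transposase offset are not given in the sources used here. Each deposited list gives, for every peak, a score, the -log10 of its p-value and of its q-value, the fold ratio over local background and a summit offset, all the authors' values, with peaks called per library. Score was used to rank peaks within a list, and fold is printed per library as the authors' value. Neither is a level that can be compared between lists of different length.

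Peaks overlapping by at least 1 bp were merged on chromosomes 1 to 19 and X (Python 3.11.15, pandas 2.3.3). Positions were set against RefSeq genes and promoters of GRCm38.p6, which shares the coordinates of mm10. Distances to genes run from region midpoints, and those to peaks or to other members run from edge to edge. Promoter windows on chromosome 18 were not used here. Intervals are exact binomial (Clopper-Pearson) at 95%, and a count of 0 allows up to 3 counts of the total. The code was tested on simulated lists. The 20 gene lists, with 423 symbols that all matched, and the members themselves were chosen with earlier results of these data known. Named genes are those nearest to 2 or more members, the 20 members in all 6 lists with the highest mean percentile, every member nearest to a gene of a list other than housekeeping, and 5 regions on each side of the rule's edge. Read counts were not used here and the sequencing depth is unknown. Alternatives were other merging rules, stricter q-values, equal list lengths and each library left out. Where a SOX2- library was left out, 2 of the other 3 SOX2- lists were enough. Some members at genes of the lists are counted but not reported by name here.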

Additional observations from a re-analysis of the deposited data

Results flagged for a closer look

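In 4 groups of 4 libraries, 1 library differed from the other 3 by a gap that was most or all of the group's range. SOX2- replicate 1 listed 67 members, against 304 to 325 in the other 3 SOX2- libraries, and 54 of the other bulk-only regions, against 326 to 355. The choice of these regions itself used presence in SOX2- lists, so both counts are descriptions, and this library had the shortest list (7009 peaks). SOX2- replicate 1 had 0 peaks at Sox2, where the other 3 SOX2- libraries had 1 each. SOX2+ replicate 2 had 3 peaks at Olig2, where the other 3 SOX2+ libraries had 4 each. In these last cases the difference is 1 peak against tied values. For continuous values, chance flags about 1 group in 20, a rate that does not hold for ties or for counts that the choice used.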

How the results depend on the processing

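No paired analysis was possible because the results come from no test. The number of members was 325 and stayed within 1.5 times of that for merging at 100 bp and for windows around summits. It was 168 at a -log10 q-value of at least 5, of which 83 were among the 325, 209 with equal lengths of the 4 MKI67 lists, 88 with equal lengths of all lists and 22 when all 4 SOX2- and both SOX2+/MKI67+ lists were required. The share of bulk-only regions that were members was 42.6%, 30.6%, 22.3% and 31.4% in these 4 settings, against 47.8%. Leaving out 1 library gave 196 to 1019 members and shares of 27.4 to 57.7%. Counts moved past 1.5 times with 4 libraries left out, namely SOX2- replicate 1 (1019 members), SOX2- replicate 3 (968), SOX2+ replicate 3 (656) and SOX2+/MKI67+ replicate 2 (196). Where a SOX2- library was left out, 2 of the other 3 SOX2- lists were enough, so the counts of 1019 and 968 rest on a looser rule. The share at gene ends (8.0%) was 35.2% with equal lengths of all lists, 4.55% for the 22 strictest members and 13.5% with the ends of genes of every kind, and 6.61 to 10.1% with 1 library left out. By fold in place of score, the median rank of member peaks was 28.9 in SOX2+/MKI67+, against 21.4. The cause of these shifts was not tested beyond what the settings themselves remove or loosen. Of the 46 genes named for several members or from a list, 32 had a member with equal MKI67 lists and 2 with equal lengths of all lists. Peak calling at unknown read depth limits every statement of absence.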
